A study of Mus musculus with 31 samples.

Results

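*Gas6*, *Axl* and *Mertk* are 3 of the 31172 genes measured in the livers of 31 *hFIX-R29X* mice. *Gas6* was selected on its measured TPM, which was higher in both Control-GalNAc-ASO groups than in the DPBS group, and *Axl* and *Mertk* were taken as its receptors, so the comparison of control ASO with DPBS is given for all 3 genes as a description without a test. Each gene had 1 row in the table of every mouse.

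*Gas6* encodes a secreted protein that carries vitamin K-dependent Gla residues. It binds phosphatidylserine exposed on dying cells with its Gla domain, and the receptor tyrosine kinases Tyro3, Axl and Mertk with its other end. Protein S, encoded by *Pros1*, is the other vitamin K-dependent ligand of this receptor family, and binds Tyro3 and Mertk. In liver, Mertk is best known from Kupffer cells and other macrophages, where it mediates the uptake of dying cells, while Axl has been described on macrophages, endothelial cells and stellate cells.

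The *hFIX-R29X* mice lack mouse *F9*. In its place they carry a minigene of human coagulation factor IX that holds the R29X premature stop and is driven by the human transthyretin promoter, which is active in hepatocytes. This genotype was shared by every group. Mice of both sexes, aged 8 to 14 weeks, were given 6 doses, 1 every 5 days, and were killed 48 h later, when the liver was collected. The groups were DPBS, the saline vehicle (6 females and 5 males), Control-GalNAc-ASO at 15 mg/kg (2 females and 2 males) and at 20 mg/kg (3 females and 3 males), and *Upf3b*-GalNAc-ASO at 10 mg/kg (2 females and 3 males) and at 20 mg/kg (2 females and 3 males). The dose labels call the dosing weekly. GalNAc is a sugar ligand that directs an antisense oligonucleotide (ASO) to the asialoglycoprotein receptor of hepatocytes, and *Upf3b* encodes a factor of nonsense-mediated mRNA decay. The labels do not say which DPBS-treated mice were dosed alongside which ASO group, so that a dosing batch and a treatment cannot be told apart.

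The libraries held 1012526 to 7334110 reads as recovered from the steps of the deposited values (median 3597929). 4 libraries, all from females, held under 1500000 reads (DPBS replicates 6 and 7, Control-GalNAc-ASO 20 mg/kg replicate 1 and *Upf3b*-GalNAc-ASO 10 mg/kg replicate 3). The ASO target *Upf3b* ranged from 33.8 to 136 TPM after DPBS, from 27.1 to 78.7 TPM after Control-GalNAc-ASO at 15 mg/kg and from 85.3 to 135 TPM at 20 mg/kg. It ranged from 3.95 to 53.7 TPM after *Upf3b*-GalNAc-ASO at 10 mg/kg and from 2.57 to 16.7 TPM at 20 mg/kg. The 53.7 TPM was that of replicate 3 at 10 mg/kg, the library of lowest depth, and lay within the ranges of DPBS and of the control ASO at 15 mg/kg. Mice labelled female had 0 to 1.95 TPM of the Y-linked gene *Ddx3y* and mice labelled male had 14.7 to 67.1 TPM. The 10 hepatocyte markers summed to 17764 to 40462 TPM in every library, and the 14 Kupffer cell and macrophage markers to 266 to 986 TPM.

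The ASOs are shown because they are the agents compared. The study's list of unconjugated ASOs gives these 16-base sequences for a control ASO and for the *Upf3b* ASO, and whether the GalNAc-conjugated control has the same bases was not given in the sources used here. Capitals mark the longest run complementary to the annotated *Mertk* transcripts.
Control ASO: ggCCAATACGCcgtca
Upf3b ASO: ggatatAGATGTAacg
The *Upf3b* ASO was complementary over all 16 bases to *Upf3b* and to no other of 55341 annotated mouse genes. For *Gas6* the longest complementary run was 6 bases with either ASO, a length that 61.0% (control) and 73.1% (*Upf3b*) of all genes also held. *Axl* gave the same 6 bases. The control ASO matched *Mertk* over 9 bases, a run held by 418 genes (0.755%), and the *Upf3b* ASO matched it over 7 bases, a run held by 41.4% of genes. A match of letters is given as a description and not as a site of action.

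*Gas6* (build GRCm38) occupies the minus strand of chromosome 8, 13465374 to 13494490. Its single protein-coding transcript in GENCODE M21 has 15 exons and 2548 bases, and its locus overlaps *Tmem255b*, which is on the other strand. *Axl* occupies the minus strand of chromosome 7, 25757273 to 25788705, and overlaps no other gene. *Mertk* occupies the plus strand of chromosome 2, 128698956 to 128802894, and overlaps the antisense gene *Gm14011* and the snoRNA gene *Gm23172*, which is on the same strand. Reads of overlapping genes may not have been told apart. The RefSeq promoter of *Gas6* is printed as the sequence in front of the gene whose level differed between the sexes. It runs from 250 bases before to 50 bases after the gene start (GRCm38.p6, chr8:13494486-13494785, minus strand), and capitals mark GC boxes (GGGCGG on either strand).
Gas6: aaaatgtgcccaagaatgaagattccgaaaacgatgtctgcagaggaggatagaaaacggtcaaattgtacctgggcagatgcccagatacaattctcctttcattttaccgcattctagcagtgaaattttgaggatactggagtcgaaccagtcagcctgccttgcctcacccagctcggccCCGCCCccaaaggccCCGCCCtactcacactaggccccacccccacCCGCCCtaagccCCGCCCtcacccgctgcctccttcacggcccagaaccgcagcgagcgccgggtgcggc
The window held 4 GC boxes, and 5.49% of 32851 mouse promoters of the same length held 4 or more. The palindrome TTCNNNGAA, bound by STAT proteins, was not in this window, and was in 8.30% of all promoters. The *Mertk* promoter also held 4 GC boxes and the *Axl* promoter held 2.

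*Gas6* was higher in females than in males of the DPBS group, with no overlap. In the 6 DPBS-treated females the level ran from 208 to 562 TPM with a median of 399 TPM. The 5 males had 165, 161, 116, 102 and 146 TPM. The means were 389 ± 127 TPM (SD, n = 6) and 138 ± 28 TPM (SD, n = 5). On the log2(TPM + 1) scale males were lower than females by a difference of -1.44 (SE 0.27, 95% interval -1.998 to -0.88, limma adjusted p = 0.0053), so that the level in females was 2.72-fold that in males. Among 8998 genes tested between the sexes in this group, limma called 1.41% at an adjusted p under 0.05, and of the 3 genes it called *Gas6* alone. An exact two-sided permutation test of the 11 mice gave p = 0.0043, the smallest that these group sizes allow, and 0.087 after adjustment over the 22 such tests run. Without the 2 females of low depth the difference was -1.20 (adjusted p = 0.030). In whole liver, fewer cells of a type and less RNA per cell cannot be told apart.

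The same difference was present after Control-GalNAc-ASO treatment. This comparison, and the others within an ASO, were added after the data had been seen. The DPBS and control ASO mice also entered the choice of *Gas6*, which was made on treatment and not on sex. The 5 females had 946 and 522 TPM at 15 mg/kg and 629, 578 and 503 TPM at 20 mg/kg. The 5 males had 345 and 225 TPM at 15 mg/kg and 276, 293 and 249 TPM at 20 mg/kg. All 5 females were above all 5 males. With both doses in 1 fit, males were lower than females by a difference of -1.17 on the log2 scale (SE 0.21, 95% interval -1.61 to -0.73, limma adjusted p = 0.0037), against a background of 1.56% of 9222 genes called, with a median of -0.10 over all genes. Without the female of low depth the call held (adjusted p = 0.013).

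After *Upf3b*-GalNAc-ASO treatment the sexes overlapped. The 4 females had 223 and 84.3 TPM at 10 mg/kg and 220 and 362 TPM at 20 mg/kg. The 6 males ranged from 165 to 321 TPM with a median of 199 TPM. The mean of females was 222 ± 114 TPM (SD, n = 4) and that of males was 213 ± 57 TPM (SD, n = 6). The difference between males and females was 0.079 on the log2 scale (SE 0.37, 95% interval -0.69 to 0.85, limma adjusted p = 0.98), where 0.359% of 9187 genes were called. The female at 84.3 TPM had the shallowest library, in which *Gas6* had 86 reads, and was the mouse with 53.7 TPM of *Upf3b*. Without it the difference was -0.27. The interval leaves room for a sex difference in either direction.

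**Figure D1:**
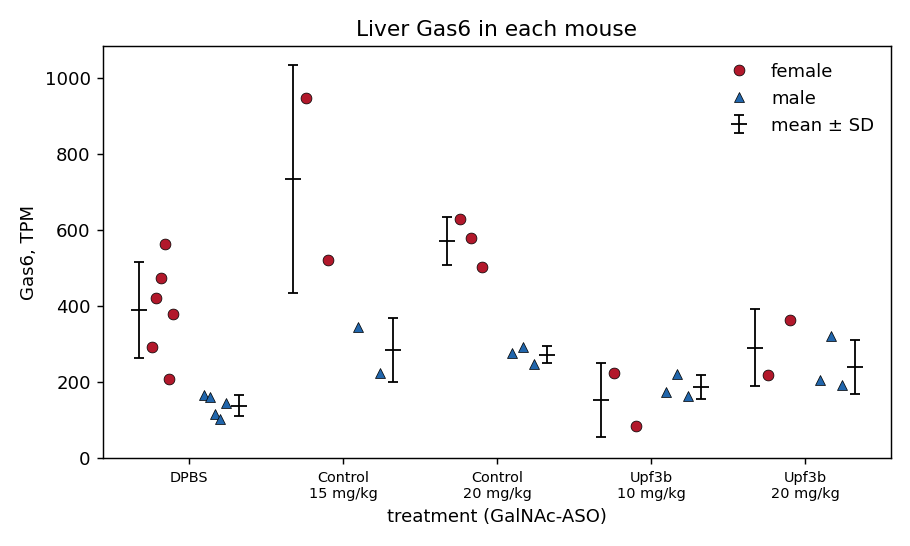
*Gas6* in each mouse, in TPM, by treatment group. Circles are females, triangles are males, and the bars give mean ± SD within sex. All DPBS-treated and all Control-GalNAc-ASO treated females lay above the males of the same treatment, and the sexes overlapped after *Upf3b*-GalNAc-ASO.

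The change of the sex difference with treatment is given as a sex by treatment term, as a description without a p-value. The term rests on the DPBS and control ASO mice that chose *Gas6* and was added after the data had been seen. Against DPBS the term for *Gas6* was 1.52 (SE 0.44), in a comparison that called 0.0106% of 9426 genes. All 4 *Upf3b*-GalNAc-ASO treated females were below the mean of DPBS-treated females on the log2 scale and all 6 males were above the mean of DPBS-treated males. 1 of these 4 females was below all DPBS-treated females. Without the 3 mice of low depth in these groups the term was 0.93. Against Control-GalNAc-ASO the term was 1.25 (SE 0.42), and 0.0102% of 9797 genes were called. Limma did not call *Gas6* in either comparison, nor in any alternative fit.

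Across all 31 mice, with treatment in the fit, *Gas6* was lower in males by a difference of -0.87 on the log2 scale (SE 0.19, 95% interval -1.26 to -0.48, limma adjusted p = 0.0035), a comparison that called 2.38% of 9840 genes. The level was 427 ± 214 TPM in females (SD, n = 15) and 210 ± 71 TPM in males (SD, n = 16). Summed cell type markers are given beside this difference. In the DPBS group the summed level of 10 hepatocyte markers had a median of 36104 TPM in females (22213 to 40462) and 21023 TPM in males (19426 to 22390). *Alb* entered this sum at a mean of 20218 TPM in females and 10522 TPM in males, and was the 1 of the 10 markers called. For males against females on the log2 scale, *Serpina1a* (0.057) and *Apob* (0.66) lay above 0, and neither was called. The other hepatocyte markers lay below 0, as *Alb* did, and were not called. They were *Tat* (-0.64), *Cps1* (-0.45), *Ttr* (-0.42), *Cyp2e1* (-0.36), *Hnf4a* (-0.19), *Apoa1* (-0.075) and *Asgr1* (-0.056). The summed level of 14 stellate cell and fibroblast markers had a median of 278 TPM in DPBS-treated females (216 to 370) and 224 TPM in males (218 to 238). After Control-GalNAc-ASO that sum was 347 to 449 TPM in females and 208 to 321 TPM in males, and after *Upf3b*-GalNAc-ASO it was 239 to 305 TPM and 203 to 243 TPM. *Acta2*, which marks activated stellate cells, was at 0 in all 4 *Upf3b*-GalNAc-ASO treated females and had a median of 0 over all mice. The part of these markers in the *Gas6* difference was not tested.

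The treatment groups ordered by mean *Gas6* were Control-GalNAc-ASO at 15 mg/kg (509 ± 315 TPM, SD, n = 4) and at 20 mg/kg (421 ± 168 TPM, n = 6), DPBS (275 ± 160 TPM, n = 11), *Upf3b*-GalNAc-ASO at 20 mg/kg (260 ± 76 TPM, n = 5) and at 10 mg/kg (174 ± 57 TPM, n = 5). Neighbours in this order overlapped in every case. With sex in the fit, *Gas6* was higher than after DPBS by 0.98 on the log2 scale at 15 mg/kg (SE 0.25) and by 0.80 at 20 mg/kg (SE 0.20), which is the rise it was chosen for. In these 2 comparisons the median of all genes was 0.072 and 0.15, and 0% of the 8971 and 9140 genes passed an adjusted p under 0.05 (644 and 905 at an unadjusted p under 0.05). Within males, all 5 Control-GalNAc-ASO treated mice were above all 5 DPBS-treated mice. In females 3 of 5 were above all 6 DPBS-treated mice, and 2 lay within their range. These positions come from the values that chose *Gas6* and add no support for the rise. The share of all genes that separate these mice was not counted.

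The comparisons of *Upf3b*-GalNAc-ASO with control ASO and with DPBS share the mice that chose *Gas6*, and are descriptions. Relative to the control ASO, *Gas6* had a difference of -1.39 at the lower doses (SE 0.41) and -0.57 at the higher doses (SE 0.26), where the median of all genes was -0.027 and -0.12. All 5 mice at 10 mg/kg, with 223, 84.3, 174, 222 and 165 TPM, were below all 4 mice given the control ASO at 15 mg/kg. The nearest values of these groups were 223 and 225 TPM. The share of all genes that separate these mice in full was not counted, and 1446 of 9166 genes had an unadjusted limma p under 0.05 here. At 20 mg/kg the levels of 220, 362, 206, 321 and 192 TPM overlapped those of the control ASO. Against DPBS the difference was -0.39 at 10 mg/kg (SE 0.33) and 0.26 at 20 mg/kg (SE 0.27). Without the mice of low depth these were 0.17 and 0.39, and with a replicate block the value at 20 mg/kg was -0.034, so that neither sign held under every alternative.

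The comparison of the 2 *Upf3b*-GalNAc-ASO doses used none of the mice that chose *Gas6*. The difference of 20 from 10 mg/kg was 0.61 (SE 0.36, 95% interval -0.15 to 1.37, limma adjusted p = 0.89). 0% of 9187 genes were called (464 at an unadjusted p under 0.05), and the exact two-sided permutation test gave p = 0.079. For the control ASO, 20 against 15 mg/kg gave -0.17 (SE 0.22) as a description.

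**Figure D2:**
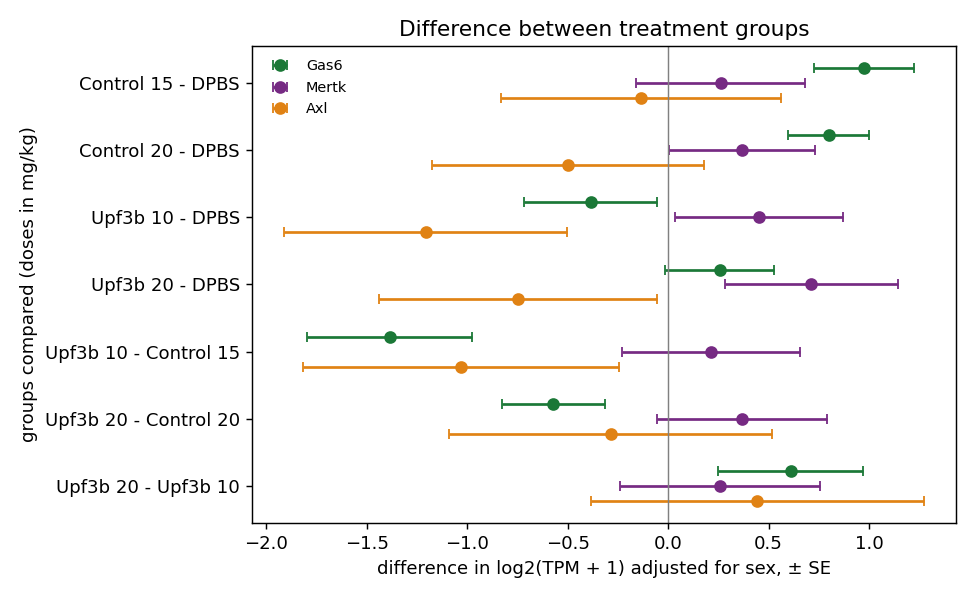
Difference between treatment groups in log2(TPM + 1), adjusted for sex, with bars of 1 SE (doses in mg/kg). *Gas6* lay at 0.98 and 0.80 in the comparisons of control ASO with DPBS, which chose it, and *Axl* and *Mertk* passed no test in the other comparisons.

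*Mertk* was detected in all 31 mice, at 5.49 to 69.6 TPM (14 to 334 reads). The 6 DPBS-treated females ranged from 17.2 to 63.3 TPM with a median of 25.8 TPM, and the 5 males had 5.49, 45.4, 20.5, 14.0 and 18.4 TPM. After Control-GalNAc-ASO at 15 mg/kg the females had 28.6 and 57.1 TPM and the males 14.5 and 22.1 TPM. These 2 ranges, of 2 mice each, did not overlap. At 20 mg/kg the females had 44.6, 48.6 and 35.3 TPM and the males 38.8, 18.2 and 10.9 TPM. After *Upf3b*-GalNAc-ASO the females had 21.1 and 69.6 TPM at 10 mg/kg and 32.2 and 68.5 TPM at 20 mg/kg. The males had 21.9, 38.0 and 18.3 TPM at 10 mg/kg and 10.6, 47.9 and 49.3 TPM at 20 mg/kg. The highest mice in each *Upf3b*-GalNAc-ASO group were females, and both sexes overlapped.

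*Mertk* passed no test of treatment. Against DPBS the difference was 0.45 at 10 mg/kg of *Upf3b*-GalNAc-ASO (SE 0.42, 95% interval -0.41 to 1.32, limma adjusted p = 0.78), where 0.376% of 9032 genes were called. It was 0.71 at 20 mg/kg (SE 0.43, interval -0.18 to 1.60, adjusted p = 0.54), where 1.13% of 9078 genes were called. Against control ASO it was 0.21 at the lower doses (interval -0.73 to 1.16, adjusted p = 0.85) and 0.37 at the higher doses (interval -0.52 to 1.25, adjusted p = 0.68), with 0.295% of 9166 and 2.52% of 9376 genes called. Between the 2 *Upf3b*-GalNAc-ASO doses the difference was 0.26 (interval -0.78 to 1.30), and between the 2 control doses it was 0.11 (interval -0.64 to 0.85), where 0% of 9222 genes were called (887 at an unadjusted p under 0.05). These intervals include changes of 1.5-fold and more. As a description, control ASO against DPBS gave 0.26 at 15 mg/kg (SE 0.42) and 0.37 at 20 mg/kg (SE 0.36).

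Males had a lower mean of *Mertk* than females in every treatment, and the differences did not pass adjustment. Over all 31 mice the difference was -0.83 (SE 0.27, 95% interval -1.36 to -0.29, limma adjusted p = 0.107). It was -0.76 in DPBS-treated mice (adjusted p = 0.59), -1.09 in Control-GalNAc-ASO treated mice (SE 0.35, adjusted p = 0.18) and -0.63 in *Upf3b*-GalNAc-ASO treated mice (adjusted p = 0.86). Without DPBS replicate 2, a male at 45.4 TPM, the adjusted p over all mice was 0.039 with a difference of -0.94. Kupffer cell and macrophage markers, the cells in which Mertk is best known, had a summed median of 462 TPM in DPBS-treated females (353 to 969) and 415 TPM in males (302 to 570). After Control-GalNAc-ASO these were 482 TPM (380 to 986) and 373 TPM (346 to 433). After *Upf3b*-GalNAc-ASO they were 761 TPM (266 to 931) and 495 TPM (314 to 673). The part of these markers in the *Mertk* values was not tested.

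*Axl* was close to the limit of what the libraries could measure. It ranged from 0 to 34.3 TPM, was at 0 in 2 mice and had under 3 reads in 6 of 31. A level of 3 reads corresponded to 0.406 to 2.94 TPM, depending on the library, and this floor covers counting error only. The DPBS-treated females ranged from 0 to 33.9 TPM with a median of 6.52 TPM, and the males had 6.67, 11.8, 4.90, 6.65 and 34.3 TPM. Control-GalNAc-ASO treated mice had 3.41, 4.05, 9.92 and 14.3 TPM at 15 mg/kg, and ranged from 0 to 24.9 TPM with a median of 6.14 TPM at 20 mg/kg. *Upf3b*-GalNAc-ASO treated mice had 1.62, 18.4, 0.980, 0.434 and 6.19 TPM at 10 mg/kg and 0.213, 11.5, 8.75, 1.95 and 10.1 TPM at 20 mg/kg. Every group therefore held mice under 5 TPM, and all groups overlapped.

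The differences of *Axl* had wide intervals. Against DPBS it was -1.21 at 10 mg/kg of *Upf3b*-GalNAc-ASO (SE 0.70, 95% interval -2.66 to 0.25, limma adjusted p = 0.64) and -0.75 at 20 mg/kg (SE 0.69, interval -2.18 to 0.68, adjusted p = 0.71). Against control ASO it was -1.03 at the lower doses (SE 0.79, adjusted p = 0.54) and -0.29 at the higher doses (SE 0.80, adjusted p = 0.88). The difference between the doses was 0.44 for *Upf3b*-GalNAc-ASO (SE 0.83, adjusted p = 0.95) and -0.34 for the control ASO (SE 0.79, adjusted p = 0.93). In contrast to *Gas6* and *Mertk*, the mean difference of males from females was above 0 over all mice, at 0.82 (SE 0.47, adjusted p = 0.61), and was not called. As a description, control ASO against DPBS gave -0.14 at 15 mg/kg (SE 0.70) and -0.50 at 20 mg/kg (SE 0.68). The difference between the *Upf3b* effects at the higher and the lower doses was 0.79 for *Axl* (SE 1.16) and 0.15 for *Mertk* (SE 0.63), with 0% of 9797 genes called by limma (799 at an unadjusted p under 0.05).

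**Figure D3:**
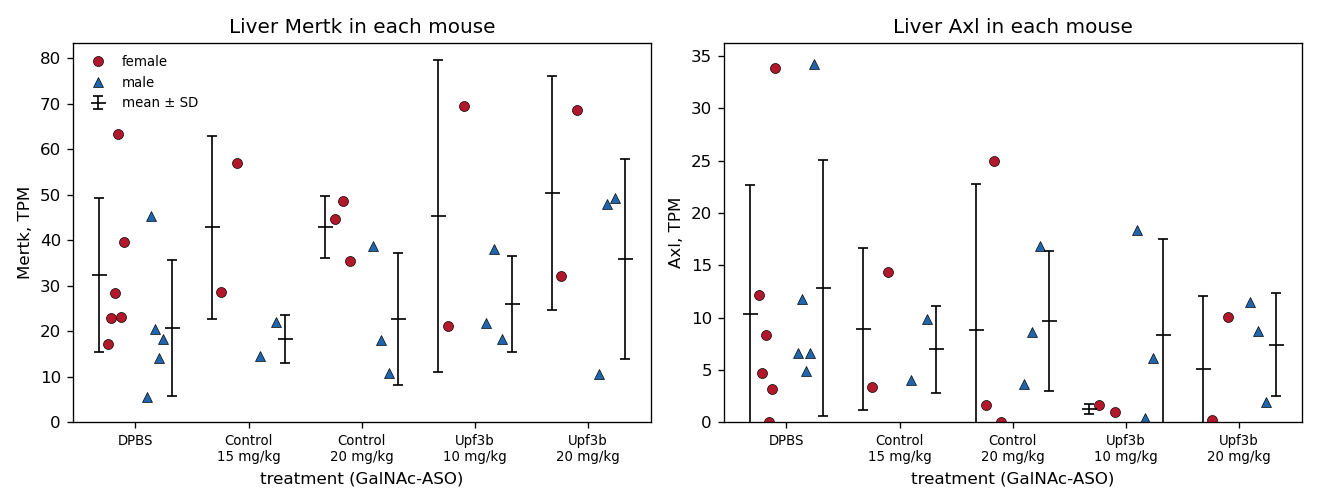
*Mertk* (left) and *Axl* (right) in each mouse, in TPM, by treatment group. Circles are females, triangles are males, and the bars give mean ± SD within sex, drawn down to 0 where they would pass below it. *Mertk* ran from 5.49 to 69.6 TPM and *Axl* from 0 to 34.3 TPM, and all groups overlapped.

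**Figure D4:**
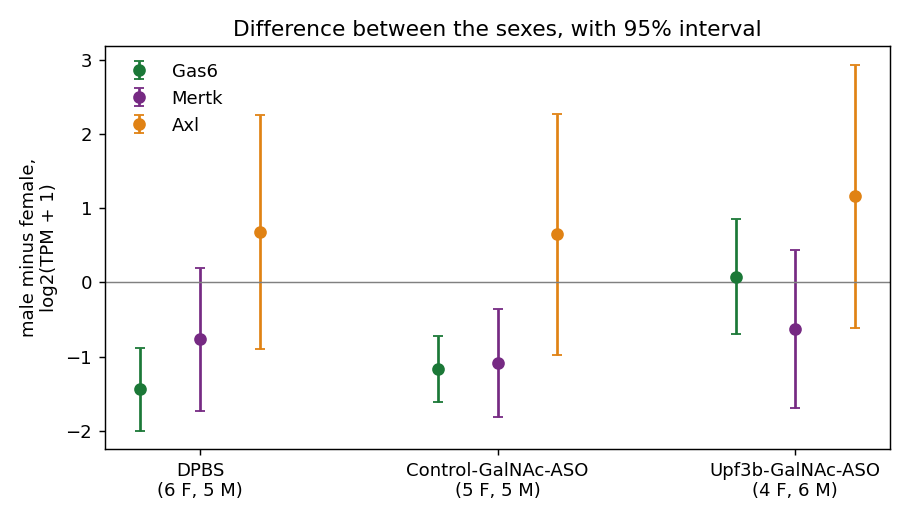
Male minus female difference in log2(TPM + 1) within each treatment, with the 95% interval. For *Gas6* the interval lay below 0 after DPBS (-1.44) and Control-GalNAc-ASO (-1.17), and included 0 after *Upf3b*-GalNAc-ASO (0.079).

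The other ligand and the third receptor of the family were measured in the same libraries. *Pros1* ranged from 12.7 to 159 TPM and passed no test. Its difference between males and females was 0.019 in DPBS-treated mice (SE 0.31, limma adjusted p = 0.99), against -1.44 for *Gas6*. *Pros1* differed by -0.73 between *Upf3b*-GalNAc-ASO and control ASO at the lower doses (SE 0.47, adjusted p = 0.46) and by -0.49 at the higher doses (SE 0.28, adjusted p = 0.35). *Tyro3* was at 0 in 24 of 31 mice and reached 12.2 TPM, and it was not tested because its median was under 5 TPM in every group.

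The genes around the receptors were taken from lists of 110 further genes. *Tulp1*, reported as another Mertk ligand, had a difference from control ASO of 1.48 at the lower doses (SE 0.43, adjusted p = 0.14) and 0.81 at the higher doses (SE 0.33, adjusted p = 0.20). Of the 9 genes of the vitamin K cycle and other Gla proteins, none was called in the comparisons of *Upf3b*-GalNAc-ASO with control ASO or DPBS. Among them *Ggcx*, the carboxylase that makes Gla residues, differed from DPBS by -0.74 at 20 mg/kg (SE 0.30, adjusted p = 0.30), and *Vkorc1*, which recycles vitamin K, by 0.024 (SE 0.27). *F10*, coagulation factor X, was lower in males over all 31 mice (-0.48, SE 0.13, adjusted p = 0.043). It was the 1 gene of the 9 tested that was called there.

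The other pathway lists gave no call among their tested genes, in comparisons that called 0% to 2.52% of all genes. Before the filter on low values they held 12 genes of signalling below the receptors and 14 genes of the engulfment of dying cells. They also held 6 LXR receptors and targets, 2 proteases that shed the receptors and 3 other reported Mertk ligands. Of the 110 list genes of all kinds, 73 to 80 passed the filter and were tested, depending on the comparison. *Adam17*, the protease best known for shedding Mertk, differed from control ASO by 0.20 at the lower doses (SE 0.31) and -0.36 at the higher doses (SE 0.27). *Lrp1*, an engulfment receptor, differed by 0.16 (SE 0.27) and 0.032 (SE 0.28). Between the sexes over all mice, 0 of the 10 engulfment genes tested were called, in a comparison that called 2.38% of 9840 genes. Their median difference was -0.36, and that of all genes was -0.033. The share of all genes below 0 was not counted, and whether the lower median is particular to this list was not tested. *Nr1h3*, which encodes LXR alpha, and *Abca1*, its target, differed between *Upf3b*-GalNAc-ASO at 20 mg/kg and DPBS by 0.057 (SE 0.28) and 0.32 (SE 0.36).

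Of the marker lists, 2 endothelial genes were higher after *Upf3b*-GalNAc-ASO than after control ASO at 20 mg/kg. *Pecam1* differed by 1.27 (SE 0.28, adjusted p = 0.020) and *Egfl7* by 1.496 (SE 0.26, adjusted p = 0.0039), and in this comparison 2.52% of all genes were called. The other 8 of the 10 endothelial markers lay below 0 and were not called, among them *Kdr* (-0.72, SE 0.40) and *Clec4g* (-0.56, SE 0.55), and the median of the list was -0.52. *Pecam1* alone had a mean of 1745 TPM after *Upf3b*-GalNAc-ASO at 20 mg/kg and 810 TPM after control ASO, and made up most of the summed endothelial level (1824 to 2574 TPM and 775 to 1893 TPM). The hepatocyte genes *Tat* (-1.99, SE 0.34, adjusted p = 0.024, against control ASO at the lower doses) and *Serpina1a* (-0.89, SE 0.20, adjusted p = 0.019, against DPBS at 20 mg/kg) were lower after *Upf3b*-GalNAc-ASO in these comparisons. *Tat* was not called against DPBS (-0.55 at 10 mg/kg and -0.71 at 20 mg/kg). Between the control doses, 20 against 15 mg/kg, *Tat* differed by -1.31 (SE 0.24, limma adjusted p = 0.086). *Alb*, serum albumin, was lower in males than in females of the DPBS group (-0.92, SE 0.20, adjusted p = 0.021). Cholangiocyte markers summed to 8.36 to 203 TPM and leukocyte markers to 3.44 to 95.3 TPM, and *Krt19*, *Epcam*, *Cd3e* and *Cd8a* had a median of 0. After *Upf3b*-GalNAc-ASO the summed hepatocyte markers ranged from 17764 to 30147 TPM in females and from 18073 to 23949 TPM in males. These sums overlapped between the sexes, as they did after DPBS (22213 to 40462 and 19426 to 22390 TPM). They also overlapped after Control-GalNAc-ASO (23526 to 32426 and 18003 to 27130 TPM). The stellate cell sums overlapped between the sexes after DPBS and *Upf3b*-GalNAc-ASO, and not after Control-GalNAc-ASO.

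The genes whose level over the 31 mice was most like that of *Gas6* were *Cbr1* (Spearman's rho 0.82), *Sult1a1* (0.82), *Ces1c* (0.80), *Apom* (0.79) and *Msrb3* (0.79), out of 9839. *Cbr1* encodes a carbonyl reductase, *Sult1a1* a sulfotransferase, *Ces1c* a carboxylesterase, *Apom* an apolipoprotein of high-density lipoprotein and *Msrb3* a methionine sulfoxide reductase. All 5 also had higher means in females than in males after DPBS. *Sult1a1* had 483 ± 124 TPM in DPBS-treated females (SD, n = 6) and 129 ± 46 TPM in males (SD, n = 5), and after *Upf3b*-GalNAc-ASO 222 ± 76 TPM (SD, n = 4) and 147 ± 25 TPM (SD, n = 6). The mice fall into groups by sex and treatment, so that these values also hold the differences between the groups. With each sex within each treatment centred on its mean, Pearson's r with *Gas6* on the log2 scale was 0.78 for *Cbr1*, 0.46 for *Sult1a1*, 0.53 for *Ces1c*, 0.48 for *Apom* and 0.66 for *Msrb3*.

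*Gas6* and its receptors were not alike. Spearman's rho over the 31 mice was 0.35 between *Gas6* and *Mertk*, -0.05 between *Gas6* and *Axl* and -0.22 between *Axl* and *Mertk*. For *Gas6* and *Mertk*, both higher on average in females, Pearson's r was 0.10 after centring within sex and treatment. The highest values with *Mertk* were those of *Enpp1* (rho 0.75), *Tapbp* (0.73), *Fam124a* (0.72), *Cwc25* (0.72) and *Lrp1* (0.71). With *Axl* they were those of *Gulo* (0.61), *Rprd2* (0.58), *Prelid1* (0.58), *Zfp655* (0.58) and *Ppme1* (0.55), in a gene with few reads. They are the 5 highest of 9839 values for each gene and carry no test, and the mice share library depth as well as treatment.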

How the data were processed

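Liver RNA of each mouse was sequenced, and the authors deposited 1 table of TPM values per gene for each mouse. The submitters' processing notes name bcl2fastq 2.17.1.14 and Salmon 0.7.2. The labels name a QuantSeq 3′ kit and the study's methods a TruSeq kit. Within a mouse, the deposited TPM values step in whole multiples of 1 value that does not depend on the gene (69.9% to 81.6% of values within 0.02 of a whole multiple), so that read totals could be estimated but no count test was run. Whether the values are per transcript length is uncertain, and the tests compared levels between mice and not between genes. The summed markers, and the part of 1 gene in a sum, add values of different genes and rest on this uncertain scale. 26 of 31198 symbols had been turned into dates and were left out.

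Differences were tested in log2(TPM + 1) with limma 3.58.1 in R 4.3.3 (trend and robust on), with sex as a covariate and the compared groups only, over genes whose median reached 5 TPM in 1 or more of those groups. A fold change on this scale understates the change of low genes. P-values were adjusted over all genes (Benjamini-Hochberg) and called under 0.05. They measure the spread between mice. Separations without overlap are given without the share of all genes that separate the same mice. The members and lists were chosen with earlier results of these data known. The fit was tested on simulated data. Named genes were the 3 members, the most abundant or called genes of the fixed lists, and the 5 genes with the highest Spearman correlation with each member. *Krt19*, *Epcam*, *Cd3e*, *Cd8a* and *Acta2* were named, outside this rule, for their values near 0, after their values were seen. *Ggcx*, *Vkorc1*, *Tulp1*, *Nr1h3* and *Abca1* were named in the same way for their roles. *Kdr*, *Clec4g* and the uncalled hepatocyte markers of the DPBS sex comparison were also named after their values were seen. Alternatives were other pseudocounts, filters, scalings, covariates and fits, a replicate block and each mouse left out. Python 3 with scipy was used for permutation tests and sequences. No protein sequence was used here.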

Additional observations from a re-analysis of the deposited data

Results flagged for a closer look

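After *Upf3b*-GalNAc-ASO treatment, with both doses together, *Gas6* lay on opposite sides of the DPBS means in the 2 sexes. All 4 treated females were below the mean of DPBS-treated females, with a mean difference of -0.91 on the log2(TPM + 1) scale, and all 6 treated males were above the mean of DPBS-treated males, with a mean difference of 0.61. In TPM, 1 of the 4 females was below all DPBS-treated females and 5 of the 6 males were above all DPBS-treated males. After Control-GalNAc-ASO all 5 males, and 3 of the 5 females, were also above all DPBS-treated mice of their sex. The mean of males was 278 TPM after Control-GalNAc-ASO, 213 TPM after *Upf3b*-GalNAc-ASO and 138 TPM after DPBS. The share of all genes that separate these mice as much was not counted. The change of the sex difference with treatment is a description, because the DPBS-treated mice are among those that chose *Gas6*. The pattern was also noticed in these data, and limma did not call *Gas6* for it. The sex by treatment term was 1.52, and 0.93 without the 3 mice of low depth. Among the 16 sets of 4 to 6 mice checked for a mouse far from the rest (the 3 genes and *Pros1* in each ASO group), 0 held one by Dixon's test, which by chance flags about 1 in 20.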

How the results depend on the processing

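Of 1055 alternative values over 45 results, 1020 kept their direction and their side of the threshold. Most of the 45 results were not called or carried no test, so this count mostly holds values that stayed uncalled. *Gas6* kept its call in all alternative limma fits for males against females in the DPBS group (-1.61 to -1.32 with each mouse left out). The same held over all 31 mice (-1.03 to -0.81) and after Control-GalNAc-ASO (-1.27 to -1.01). Exact permutation gave p = 0.0043 for DPBS and 0.0079 for Control-GalNAc-ASO, counted here before adjustment. After adjustment over the 22 such tests both were 0.087, which is not under 0.05. After *Upf3b*-GalNAc-ASO its sex difference of 0.079 ranged from -0.27 (without the female of 1012526 reads, the setting without libraries under 1500000 reads, chosen after seeing the data) to 0.30. *Mertk* changed side in 2 cases: with each mouse left out the difference of males from females over all mice ranged from -0.94 (called, without DPBS replicate 2) to -0.71, and exact permutation of the control ASO mice gave -1.09 at p = 0.024 before adjustment. Small, uncalled differences of the receptors changed sign. With each mouse left out, *Axl* ranged from -0.088 to 0.94 between the *Upf3b* doses, -0.84 to 0.24 for *Upf3b* against control at 20 mg/kg, -0.89 to 0.18 between the control doses, -0.083 to 1.143 and -0.14 to 1.17 for sex by treatment against DPBS and against control. *Mertk* ranged from -0.0038 to 0.64 between the *Upf3b* doses, -0.036 to 0.56 for *Upf3b* against control at the lower doses, -0.11 to 0.30 between the control doses, -0.12 to 0.50 for the difference between dose levels and -0.24 to 0.47 for sex by treatment against DPBS. Quantile normalization gave -0.022 for *Mertk* between the control doses, and leaving out the libraries of low depth gave -0.036 for *Mertk* at the lower doses. The cause was not tested. For *Gas6* against DPBS, values for *Upf3b*-GalNAc-ASO at 10 mg/kg ranged from -0.58 to 0.078 with each mouse left out, and at 20 mg/kg from 0.066 to 0.52 (-0.034 with the replicate block, 0.39 without the libraries of low depth), and between the control doses from -0.32 to 0.025.

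The replicate numbers did not pair the mice: no comparison had a correlation over 0.1 for every same-numbered pair. With a replicate block, *Axl* between the *Upf3b* doses was -0.066, and *Gas6* was 0.24. The block changed no call of a member. The number of all genes called went from 236 to 45 for *Upf3b* against control at 20 mg/kg, from 27 to 95 at the lower doses, from 103 to 42 against DPBS at 20 mg/kg and from 34 to 9 at 10 mg/kg. Over the other alternatives and the mice left out, the count at the lower doses ran from 2 to 431 (without replicate 1 at 10 mg/kg). Depth limits *Axl* most, with under 3 reads in 6 mice, and groups of 4 to 6 mice leave wide intervals.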
